A study of Mus musculus with 3 samples.

Results

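Dendritic cells carrying Xcr1 and Clec9a transcripts were a small population of the sorted aortic leukocytes, with 139 of 20903 kept cell barcodes in 3 libraries. A barcode was kept with at least 200 detected genes and at most 10% of its unique molecular identifiers (UMIs, 1 per counted transcript) from mitochondrial genes. It was counted as a member with at least 2 summed UMIs of Xcr1 and Clec9a, at most 1 UMI of Cd209a, and 0 UMIs of C1qa (macrophages), Cd79a (B cells) and Cd3e (T cells). The members numbered 77 of 6038 kept barcodes in the library labelled control, 39 of 8155 in that labelled HHcy and 23 of 6710 in that labelled WD. Members were thus chosen by measured UMIs of these genes, whose levels are described and not tested.

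The aortas came from mice with a disrupted Apoe gene (ApoE-/-) on the C57BL/6J background, which all 3 groups share. The library labelled HHcy came from mice given homocysteine at 1.8 g/L in their drinking water for 4 weeks, and the library labelled WD from mice on a western diet for 4 weeks. Whole aortas, adventitia included, were digested, and live, nucleated cells with surface CD45, the marker of blood-derived cells, were sorted for droplet sequencing. There was 1 library per group, and the number of mice behind each, their age and their sex are not given in the labels. No test between groups was therefore possible, and every interval below covers counting error only.

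Type 1 conventional dendritic cells (cDC1) depend on the transcription factors IRF8, BATF3 and ID2 and arise from precursors that respond to FLT3 ligand. XCR1 is the receptor for the chemokine XCL1, which natural killer and CD8 T cells release. CLEC9A (DNGR-1) binds actin filaments exposed on dead cells and helps to route their antigens to cross-presentation, the display of captured antigen on MHC class I to CD8 T cells. Type 2 conventional dendritic cells (cDC2), many of which carry Cd209a in mouse tissues, are known mainly for MHC class II presentation to CD4 T cells.

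As the comparator, 195 "Cd209a cells" of the same libraries were used: 89 in the control library, 49 in that labelled HHcy and 57 in that labelled WD. These had at least 2 Cd209a and 5 H2-Aa UMIs and 0 UMIs of Xcr1, C1qa, Cd79a and Cd3e. The median member had 16733 UMIs in the control library, with 15149 for HHcy and 15111 for WD. The median over all kept barcodes was 8293, 8086 and 9935 UMIs in the same order. Kept barcodes of different libraries shared 14 to 18 cell barcode sequences per pair of libraries, and 0 of these were members. Apoe, the gene disrupted in all groups, stood at 16.3 counts per 1000000 UMIs (CPM) over all deposited barcodes of the control library and 19.3 CPM in the library labelled WD, but at 374 CPM in the library labelled HHcy. In members it was 7.73, 16 and 5.33 CPM in the order control, HHcy and WD, from 10, 10 and 2 UMIs. The Apoe level of the library labelled HHcy thus goes against its label, and whether the counted transcript end lies outside the disrupted part of the gene is not given in the sources used here.

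Members made up 1.28% of kept barcodes in the control library (95% Clopper-Pearson interval 1.01 to 1.59). Their share was 0.478% in that labelled HHcy (0.340 to 0.653) and 0.343% in that labelled WD (0.217 to 0.514). The control library was the highest, its interval overlapped neither of the others, and the 2 lower intervals overlapped each other. On the log2 scale the share differed from control by -1.42 in the library labelled HHcy (95% interval -1.97 to -0.86) and by -1.90 in the library labelled WD (-2.57 to -1.23). Cd209a cells were also a smaller share in these libraries, by -1.29 (-1.80 to -0.79) and -0.80 (-1.27 to -0.32). Among cells of both gates, members were 46.4% in control, 44.3% in that labelled HHcy and 28.75% in that labelled WD. Shares of a sorted suspension depend on all other cells in it, so a smaller share and more of the other cells cannot be told apart.

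**Figure D1:**
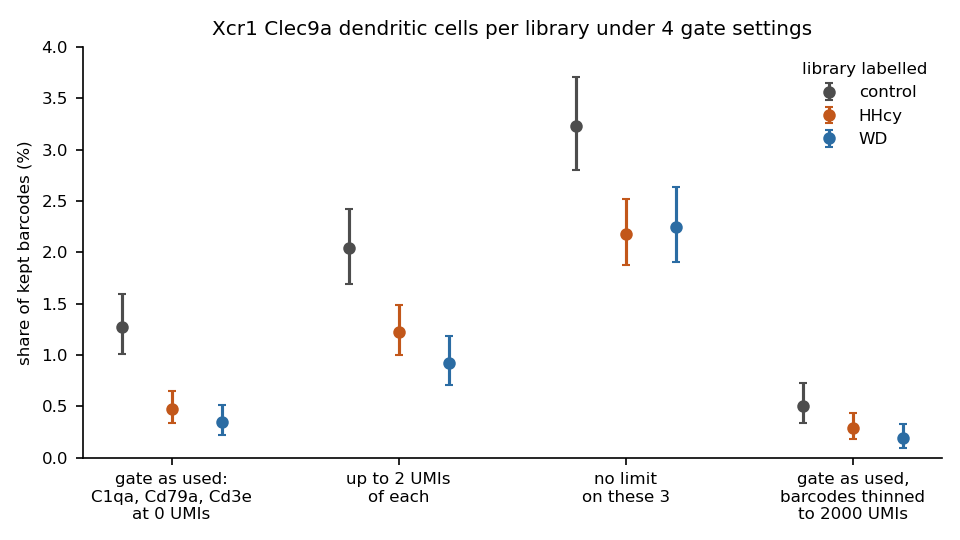
Share of kept barcodes (%, vertical axis) that met the member gate in each library under 4 gate settings, with 95% Clopper-Pearson intervals as bars. The control library has the highest point at every setting, at 1.28% with the gate as used and 3.23% with no limit on C1qa, Cd79a and Cd3e.

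The size of the difference depended on the requirement of 0 UMIs for the lineage genes of other cells. Of 202, 197 and 168 kept barcodes with at least 2 UMIs of Xcr1 and Clec9a (control, HHcy, WD), this clause for C1qa removed 101, 129 and 137. In 45, 57 and 38 of these the barcode held only 1 or 2 C1qa UMIs. C1qa was also found in 24.7%, 29.1% and 41.8% of B cell barcodes, a cell type that should lack it. These held at least 5 Cd79a, at most 2 C1qa and 0 Cd3e UMIs, at a median depth of 8455, 6778 and 7393.5 UMIs. The C1qa clause therefore met a different background in each library, highest in the library labelled WD. For Cd79a the library labelled HHcy was highest. There 56, 99 and 70 of the barcodes were over the limit. Cd79a was found in 32.5%, 64.7% and 35.2% of macrophage barcodes (at least 5 C1qa UMIs; median depth 10416.5, 16074 and 13979 UMIs). With up to 2 UMIs of each of the 3 genes allowed, the shares became 2.04%, 1.23% and 0.924%, and the log2 ratios to control were -0.73 (HHcy) and -1.14 (WD). With no limit on them the shares were 3.23%, 2.18% and 2.25%, and the ratios were -0.57 (-0.85 to -0.28) and -0.52 (-0.82 to -0.22). The Cd209a share ratio of the library labelled WD changed from -0.80 to 0.026 when this limit was dropped.

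Xcr1 (chromosome 9, 123852315 to 123862029, minus strand, mm10) and Clec9a (chromosome 6, 129408862 to 129424763, plus strand) were found together in 66 of 77, 26 of 39 and 19 of 23 members. Xcr1 reached 277 CPM in the control library, 249 CPM in the library labelled HHcy and 245 CPM in the library labelled WD. Clec9a reached 210, 253 and 195 CPM in the same order. The median member held 4, 3 and 4 Xcr1 UMIs and 3, 3 and 2 Clec9a UMIs, so single cells were close to the detection limit. Among B cell barcodes, Xcr1 was found in 0.382% to 1.17% and Clec9a in 0.459% to 1.39%. Just inside the gate, 6, 5 and 3 members held exactly 2 UMIs, and just outside it 27, 13 and 17 barcodes held 1 UMI and met every other clause.

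Members with Clec9a and no Xcr1 numbered 7 of 77 in the control library, 11 of 39 in that labelled HHcy and 1 of 23 in that labelled WD. In the library labelled HHcy these 11 cells carried 1089 CPM of Tcf4, the master factor of plasmacytoid dendritic cells, against 48.8 CPM in the 26 cells with both receptors. Siglech, a plasmacytoid surface lectin, was at 187 against 2.12 CPM, and Ly6d at 404 against 17.0 CPM. Several cDC1 genes were lower in the 11 cells, with Itgae at 23.3 CPM against 174 CPM and Wdfy4 at 350 CPM against 569 CPM. Others differed little, with Irf8 at 1687 CPM against 1796 CPM and Batf3 at 202 CPM against 217 CPM. Of these cells, 4 stand apart in the plot of list levels per cell, at 8554 to 16596 CPM of summed plasmacytoid markers. The rest of the 11 were at 0 to 597 CPM of these markers and at 6847 to 12947 CPM of summed cDC1 genes. The pooled values of the 11 cells thus mix unlike cells. The HHcy ratios of summed lists are also given for members with an Xcr1 UMI.

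The label held against genes that the gate did not use. Of a list of 27 cDC1 genes, 25 were not gate genes and 22 passed the filter on low counts. Of these 22, 18 were higher in members than in Cd209a cells by edgeR's quasi-likelihood test on UMI sums with the library as a block (Benjamini-Hochberg adjusted p under 0.05). None of the 22 was called lower, and the median log2 fold change was 2.95. Over all 6885 genes tested, 18.0% were called, 8.15% higher and 9.88% lower, with a median log2 fold change of -0.01. The gates split cells of the same libraries by their own UMIs, so genes that follow Xcr1 or Cd209a had to differ. These counts therefore describe the gates and support nothing further. Without the library labelled HHcy, 931 of 7709 genes were called, and 18 of the cDC1 list were higher.

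The transcription factors of the lineage stood apart in all 3 libraries. Irf8 was at 1451, 1738 and 1917 CPM in members (control, HHcy, WD) against 43.1, 227 and 165 CPM in Cd209a cells, a log2 fold change of 3.82 ± 0.30 (SE). Id2 was at 1481, 1038 and 1352 CPM against 270, 146 and 188 CPM. Batf3 differed less, with 200, 211 and 213 CPM against 132, 96.1 and 69.9 CPM, a log2 fold change of 1.10 ± 0.19. The library sums of members and Cd209a cells did not overlap for any of these 3 genes. The same held, with members above, for 12.9% of all 6885 genes tested. In single Cd209a cells, Irf8 was still found in 27.0%, 28.6% and 42.1% and Batf3 in 64.0%, 53.1% and 50.9%. Zbtb46, which marks conventional dendritic cells of both types, was called higher by 0.76 ± 0.23, a call lost when any 1 library was left out (0.56 to 0.97). Flt3, the receptor that both lineages use, was not called at 0.26 ± 0.15 (adjusted p = 0.30 by the same edgeR test).

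Surface and enzyme markers of cDC1 followed. Naaa, a lysosomal amidase, was at 1375, 1285 and 1112 CPM in members against 211, 201 and 161 CPM in Cd209a cells (2.78 ± 0.11). Wdfy4, required for cross-presentation of cell-associated antigen, was at 552, 521 and 496 CPM against 155, 94.7 and 129 CPM (2.11 ± 0.15). Ifi205, an interferon-inducible member of the Ifi200 family, was at 471, 452 and 611 CPM against 59.8, 54.5 and 65.7 CPM (3.13 ± 0.14). All 3 were thus also present in Cd209a cells, at lower levels. Cadm1, an adhesion molecule, was nearly restricted to members within these 2 gates, at 171, 153 and 123 CPM against 3.19, 2.87 and 2.12 CPM. Itgae, the CD103 integrin chain of tissue cDC1, was at 184, 139 and 171 CPM against 5.58, 0 and 4.24 CPM. It was found in 72.7%, 51.3% and 73.9% of members and in 3.37%, 0% and 7.02% of Cd209a cells, whose median depth was 14482, 13591 and 15704 UMIs.

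**Figure D2:**
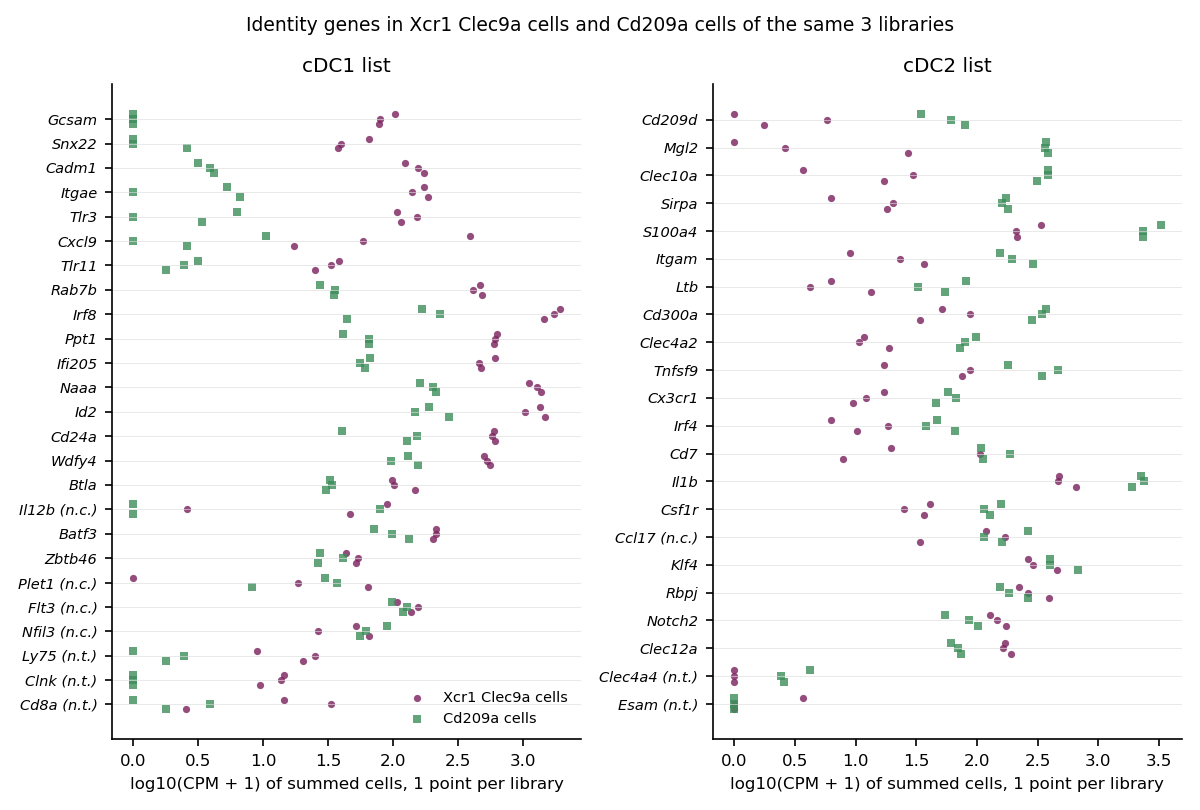
Level of each cDC1 and cDC2 list gene as log10(CPM + 1), 1 point per library, in members (purple circles) and Cd209a cells (green squares); n.c. marks genes not called and n.t. genes not tested. Irf8, Naaa, Id2 and Rab7b lie higher in members in every library, and S100a4, Sirpa, Clec10a and Mgl2 lie lower.

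The 12 largest higher log2 fold changes under the naming rule included those of Gcsam, Gpr141b, Cadm1, Itgae, Tlr3, Cxcl9, Gm43914, Agpat3, Gm36723, Rab7b and Cd81. Gcsam, named for its expression in germinal centre B cells, was at 77.3, 78.3 and 101 CPM in members and had 0 UMIs in all Cd209a cells. Against a floor of 3 counts over the Cd209a cells, this was at least 78.7-fold higher in members. Gpr141b, annotated as a long intergenic non-coding RNA, had 188 UMIs in members and 1 in Cd209a cells. Rab7b, a small GTPase of late endosomal traffic, was at 485, 408 and 467 CPM against 34.3, 34.4 and 26.5 CPM (3.89 ± 0.17). Cd81, a tetraspanin, was at 217, 176 and 232 CPM against 12, 23.0 and 12.7 CPM. Gm43914 (chromosome 6, 129418179 to 129418772, plus strand) is annotated as a sense transcript inside Clec9a, so its level cannot be told apart from reads of that gate gene. All 12 stayed called and higher when any 1 library was left out.

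Cxcl9, a chemokine that recruits T cells through CXCR3, was uneven among members. Its level was 16.2 CPM in the control library, 57.6 CPM in the library labelled HHcy and 387 CPM in the library labelled WD, against 1.59, 0 and 9.54 CPM in Cd209a cells. It was found in 11.7%, 15.4% and 13.0% of members, and 1 cell held 72.4% of its UMIs in the library labelled WD.

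The cDC2 list showed the reverse order. Of its 20 tested genes, 16 were lower in members, 3 were higher and 1, Ccl17, was not called, with a median log2 fold change of -2.33. Over all genes tested, 9.88% were lower and 8.15% higher. Sirpa, the receptor of CD47, was at 17.0, 19.2 and 5.33 CPM in members against 179, 161 and 173 CPM in Cd209a cells (-3.44 ± 0.25). Clec10a, a galactose-type lectin, was at 16.2, 28.8 and 2.67 CPM against 313, 387 and 387 CPM (-4.30 ± 0.28). S100a4 was present in both, at 212, 209 and 336 CPM against 2317, 2313 and 3264 CPM (-3.35 ± 0.10). The 3 called higher were the Notch pathway genes Notch2 (0.95) and Rbpj (0.59) and the inhibitory lectin Clec12a (1.42), which cDC1 are also known to carry. The call of Rbpj was lost without the control library (0.57).

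The 12 genes named as lowest were Ffar2, Cd209d, Mgl2, Ddr1, Il1rn, Ifitm1, Ccr1, Osm, Clec10a, Clec4n, Mmp12 and Ptgs2. Ptgs2, the inducible cyclooxygenase, was at 37.9, 22.4 and 5.33 CPM in members against 571, 451 and 296 CPM in Cd209a cells (-4.18 ± 0.22). Ifitm1, an interferon-induced membrane protein, was at 26.3, 76.7 and 10.7 CPM against 764, 976 and 848 CPM, and Osm, the cytokine oncostatin M, at 6.96, 7.99 and 5.33 CPM against 161, 141 and 117 CPM. Ffar2, the receptor for short-chain fatty acids, had 2 UMIs in members and 172 in Cd209a cells (log2 ratio -6.09, -9.15 to -4.22). The summed neutrophil marker list was far higher in Cd209a cells of the library labelled HHcy, at 7696 CPM against 66.2 CPM in control and 873 CPM in the library labelled WD. In members it was 257, 184 and 72.0 CPM in the order control, HHcy and WD. All 12 genes stayed lower and called when the library labelled HHcy was left out, and when either of the others was.

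Among 30 tested genes of cross-presentation, 11 were higher in members, 5 were lower and 14 were not called, with a median log2 fold change of 0.08. The shares over all genes tested were 8.15% higher and 9.88% lower. The genes called higher included the transport and proteasome steps that supply peptides for class I. Psmb9, an immunoproteasome subunit, was at 576, 582 and 632 CPM in members against 206, 235 and 217 CPM in Cd209a cells (1.5 ± 0.12; edgeR adjusted p = 1.4e-05). Tap2, a subunit of the peptide transporter, was at 143, 133 and 120 CPM against 59.0, 61.7 and 50.9 CPM (1.26 ± 0.17), and Tap1 was higher by 0.67 ± 0.15. Rab43, a GTPase needed by cDC1 for cross-presentation, was at 373, 317 and 387 CPM against 145, 116 and 101 CPM (1.62 ± 0.16; edgeR adjusted p = 3.7e-05). Wdfy4, on this list too, is described above. Psme1, Psme2, Psmb8, Nlrc5, Rab11a and Pdia3 were also called higher, by 0.47 to 0.95.

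The 5 cross-presentation genes called lower were of other steps. Cybb, the catalytic subunit of the phagosomal NADPH oxidase, was at 75.8, 106 and 107 CPM in members against 452, 600 and 480 CPM in Cd209a cells (-2.39 ± 0.15; edgeR adjusted p = 1.9e-06). Rac2 (-0.64), a GTPase of the same oxidase, was lower as well, as were the class I chains B2m (-0.38) and H2-K1 (-0.34). Without the control library the calls of Rac2 (-0.65), B2m (-0.33), H2-K1 (-0.36), Nlrc5 (1.07), Pdia3 (0.30) and Tap1 (0.56) were lost. Without the library labelled HHcy those of Rac2 (-0.45), B2m (-0.31), H2-K1 (-0.19), Nlrc5 (0.94) and Pdia3 (0.53) were lost, and without the library labelled WD those of Nlrc5 (0.72) and Tap1 (0.61). Cybb, Psmb9, Tap2 and Rab43 were called in all 3 cases.

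Among MHC class II genes, the abundant chains differed little and several genes of antigen processing were lower. The Cd209a gate required at least 5 UMIs of H2-Aa, a class II chain, and the member gate had no such clause. Genes that follow H2-Aa could therefore be lower in members through the gates alone. H2-Ab1, a class II chain, was at 8670, 8211 and 8605 CPM in members against 9911, 9734 and 9562 CPM in Cd209a cells and was not called (-0.14 ± 0.05; edgeR adjusted p = 0.091). Of 13 tested genes, 6 were lower, 2 were higher and 5 were not called, against 9.88% lower and 8.15% higher over all genes tested. The lower ones were led by the proteases and reductase that process antigen: Lgmn (-2.07), Ifi30 (-1.37) and Ctss (-1.36 ± 0.10). Ctss, the protease cathepsin S that trims the invariant chain, was at 437, 491 and 475 CPM in members against 1202, 1244 and 1279 CPM. H2-Ob, a chain of the peptide-exchange modulator H2-O, was higher (0.78) while its partner chain H2-Oa was lower (-0.95), and both calls were lost without the control library (0.80 and -0.77).

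**Figure D3:**
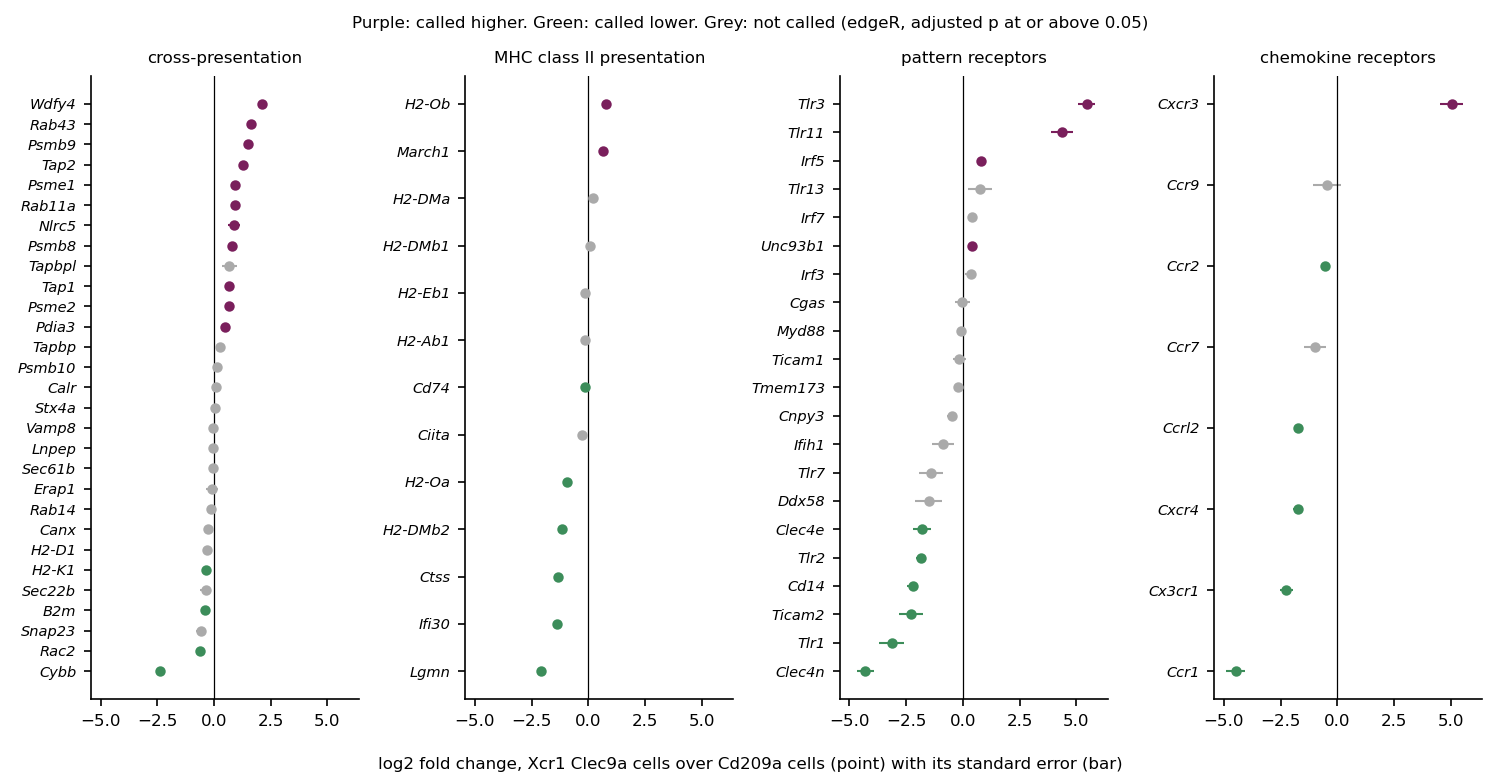
Log2 fold change of members over Cd209a cells (horizontal axis) with its standard error for tested genes of 4 functional lists. Purple points were called higher, green points lower and grey points not called; Tlr3, Tlr11 and Cxcr3 lie farthest to the right and Clec4n and Ccr1 farthest to the left.

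Tlr3 and Tlr11 were the pattern receptors with the largest difference from Cd209a cells. Tlr3, the endosomal receptor for double-stranded RNA, was at 114, 152 and 107 CPM in members against 2.39, 0 and 5.30 CPM in Cd209a cells (5.45 ± 0.39). Tlr11, a receptor for microbial profilin, was at 24.0, 32.0 and 37.3 CPM against 0.797, 1.43 and 2.12 CPM (4.38 ± 0.49). Irf5 (0.81) and Unc93b1 (0.40), which carries endosomal Toll-like receptors, were also higher, so 4 of 21 tested genes were higher (8.15% of all genes tested). Another 6, which encode receptors, co-receptors or adaptors for ligands of the microbial surface, were lower (9.88% of all genes tested): Clec4n, Tlr1, Ticam2, Cd14, Tlr2 and Clec4e. The call of Unc93b1 was lost when any 1 library was left out (0.33 to 0.47), and that of Ticam2 without the library labelled HHcy (-2.07). Tlr2 was at 53.3, 28.8 and 26.7 CPM against 154, 145 and 121 CPM (-1.84 ± 0.21).

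Among 9 tested chemokine receptors, 1 (Cxcr3) was called higher and 6 lower, against 8.15% and 9.88% of all genes tested. Cxcr3 was at 46.4, 36.8 and 56.0 CPM in members against 0, 1.43 and 3.18 CPM in Cd209a cells (5.04 ± 0.51; edgeR adjusted p = 5.4e-05). Its ranges over libraries did not overlap, as for 12.9% of all genes tested with members above. CXCR3 is the receptor of CXCL9 and CXCL10. The 6 called lower included Ccr1, Cx3cr1, Cxcr4, Ccrl2 and Ccr2, receptors of monocyte-related traffic among other roles, and ranged from -4.48 (Ccr1) to -0.53 (Ccr2), the last not called without the control library (-0.44). Ccr7, which guides mature dendritic cells to lymph nodes, stood at 40.2, 9.59 and 179 CPM in members and was not called (-0.96 ± 0.49), though it was called lower without the library labelled WD (-1.96).

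Of 13 tested genes for the uptake of dying cells, 4 were higher and 3 were lower, against 8.15% and 9.88% of all genes tested. Cd36, a scavenger receptor for oxidised lipids and apoptotic cells, was at 165, 153 and 125 CPM in members against 19.9, 14.3 and 33.9 CPM in Cd209a cells (2.78 ± 0.25). Timd4, a phosphatidylserine receptor, was at 58.8, 56.0 and 13.3 CPM against 0.797, 15.8 and 4.24 CPM, so the ranges overlapped. Its log2 fold change of 2.95 became 1.79 without the control library. Havcr2 (1.18), which encodes TIM-3, and Anxa1 (0.77) were higher, and Lrp1 (-2.34), Cd300lf (-2.17) and the receptor kinase Axl (-1.31) were lower. The calls of Anxa1 and Axl were lost without the control library (0.50 and -1.12), and that of Anxa1 also without the library labelled WD (0.72).

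Targets of the liver X receptors, which respond to cholesterol load, were lower or not called, with 6 of 12 tested genes lower, among them the disrupted Apoe, and 0 higher. Pltp, a phospholipid transfer protein, was at 6.96, 35.2 and 18.7 CPM in members against 156, 143 and 156 CPM in Cd209a cells (-3.07 ± 0.35), and the cholesterol exporters Abca1 (-2.38) and Abcg1 (-1.09) were lower. Of 21 tested genes of maturation and costimulation, 7 were lower and Cxcl9 was higher. The lower ones included Cd80 (-1.77), a ligand of CD28, and Cd274 (-1.67), which encodes PD-L1; the call of Cd274 was lost without the control library (-1.89). Of 31 tested cell-cycle genes, 5 were higher (Ube2c, Ccnb2, Tpx2, Cdk1 and Hmgb2) and 0 lower, with a median log2 fold change of 0.38. Beside the counts of these lists, 8.15% of all genes tested were higher and 9.88% lower.

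Within members, the treated libraries were set against control by the ratio of summed CPM. A gene was past the limit with at least 20 UMIs over both libraries, at least a 2-fold ratio and an exact 95% interval without 0. The interval holds counting error and leaves out the spread between cells and mice. Control has the largest UMI total of members, so a gene could meet the minimum of 20 UMIs through control alone. The filter thus favours genes higher in control. In the library labelled HHcy, 226 of 7061 genes were past it and higher (3.20%) and 165 were lower (2.34%). In the library labelled WD, 152 of 6554 genes were higher (2.32%) and 214 were lower (3.27%). Scaled by TMM totals, the counts were 191 higher and 204 lower for HHcy, and 173 higher and 181 lower for WD. These values rest on 77, 39 and 23 cells, and which genes were past the limit depended on the gate. Of the 391 genes for HHcy and the 366 for WD, 317 and 269 remained past it with a threshold of 3 UMIs of Xcr1 and Clec9a. In members with an Xcr1 UMI 234 and 292 remained, and for HHcy 176 genes were higher and 172 lower there. With up to 2 UMIs of the lineage genes allowed, 105 and 112 remained, and without barcodes with 3 or more markers of another lineage 19 and 41. Such markers were found in 53 of 77, 33 of 39 and 18 of 23 members. That last setting therefore kept only 24, 6 and 5 members (control, HHcy, WD).

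Interferon-stimulated genes were higher in members of the library labelled WD. Of 19 list genes with enough UMIs, 12 were past the limit and higher (Zbp1, Ifi44, Isg15, Oasl2, Oas3, Usp18, Isg20, Trim30a, Irf7, Rsad2, Ifit2 and Ifit3) and 0 were lower. Over all genes for WD, 2.32% were past it and higher and 3.27% lower. The summed list was at 1632 CPM in control, 2267 CPM in the library labelled HHcy and 3317 CPM in the library labelled WD. The WD ratio was 1.02 on the log2 scale (0.92 to 1.13), 0.72 without the member richest in these transcripts in each library, and 0.79 in members with an Xcr1 UMI. The median single cell was at 972, 1207 and 1920 CPM of the list in control, HHcy and WD, and the ranges over cells overlapped. The same list was also higher in Cd209a cells (0.68) and in all other kept barcodes (0.74) of that library. For HHcy the ratio was 0.47, and it was -0.015 in members with an Xcr1 UMI.

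Single genes of the list differed in how many cells carried them. Irf7, the factor that amplifies type I interferon production, was at 64.9 CPM in control and 243 CPM in the library labelled WD (1.90, 1.46 to 2.35). Trim30a, an interferon-induced ubiquitin ligase gene, was at 161 and 341 CPM (1.09, 0.76 to 1.41) and was found in 21 of 23 cells. Ifit3 stood at the other end, with 88.0% of its UMIs in 1 cell. Of the 1244 list UMIs in the library labelled WD, 361 lay in 1 cell (29.0%) and 210 in 1 cell with Clec9a and no Xcr1. That second cell was also at 3703 CPM of plasmacytoid markers, above every control member, with 813 CPM of Tcf4 and 0 UMIs of Naaa, Id2, Itgae, Cadm1 and Batf3. The WD ratio of 0.79 in members with an Xcr1 UMI leaves this cell out but keeps the cell with 361 list UMIs. It also keeps a cell with 2 Xcr1 UMIs and no Clec9a, which held 100 list UMIs (12544 CPM). That cell was at 1254 CPM of the cDC1 list. The ratio without all of these cells together was not computed.

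The smaller list of GTPases that interferon gamma induces differed more, from few transcripts. Its sum was 64.2 CPM in control, 92.7 CPM in the library labelled HHcy and 307 CPM in the library labelled WD. The WD ratio was 2.26 (1.84 to 2.68), 1.76 without the richest cell of each library and 1.52 in members with an Xcr1 UMI, against 0.56 in Cd209a cells and 0.25 in other barcodes. Gbp2, Irgm1 and Ifi47, the 3 genes with enough UMIs, were all past the limit and higher, against 2.32% of all genes. Gbp2 had 8 UMIs in control and 17 in the library labelled WD.

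Promoters of these genes are shown because interferon-induced factors bind a shared element, read here on both strands as GAAA, then 2 bases of any kind, then GAAA. The windows of 250 bases before the start site are from RefSeq (GRCm38.p6). Of the 12 list genes past the limit, 10 had a window and 5 of them held the element (Ifit3, Isg15, Oas3, Rsad2 and Trim30a). Over the whole interferon-stimulated list it was 11 of 18 genes with a window, and over the GTPase list 9 of 10. In all 32851 windows the share was 2.98%. Capitals mark the element, including overlapping matches, with 12 bases on each side:
Ifit3, chr19:34583361-34583428, plus strand: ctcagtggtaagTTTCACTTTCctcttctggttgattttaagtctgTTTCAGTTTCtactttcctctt
Isg15, chr4:156200863-156200908, minus strand: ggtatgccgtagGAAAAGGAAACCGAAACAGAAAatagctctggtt
Gbp2, chr3:142620592-142620625, plus strand: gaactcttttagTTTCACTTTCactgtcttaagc
Irgm1, chr11:48871423-48871462, minus strand: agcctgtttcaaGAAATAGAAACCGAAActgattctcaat

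Ifit3 holds 2 separate matches on the reverse strand, Isg15 holds 3 overlapping ones and Irgm1 holds 2. A match describes letters in the window and says nothing of binding in these cells. Among the cDC1 genes looked up, Ifi205 and Gpr141b held 1 match each.

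Genes of sterol synthesis and uptake were lower in members of the library labelled WD. The sum over the list was 729 CPM in control, 659 CPM in the library labelled HHcy and 432 CPM in the library labelled WD. The WD ratio was -0.75 (-1.0 to -0.51), and it was -0.73 both without the richest cell of each library and in members with an Xcr1 UMI. All 15 list genes with enough UMIs had ratios below 0 for WD, as had 3537 of all 6554 genes. Of the 15, 6 were past the limit and lower, among them Msmo1, Idi1, Sqle and Stard4, against 3.27% of all genes. The minimum of 20 UMIs favoured genes higher in control, so these counts were partly set by that filter. Msmo1, a sterol methyl oxidase, had 42 UMIs in control and 2 in the library labelled WD (-2.61, -5.70 to -0.66). Sqle, the squalene epoxidase, had 23 UMIs in control and 0 in the library labelled WD, so it met the minimum through control alone. The same sum differed less in Cd209a cells (-0.21, -0.40 to -0.03) and in other barcodes (-0.36). For HHcy it was -0.15 (-0.32 to 0.02), or -0.067 in members with an Xcr1 UMI. Of 16 list genes for HHcy, 2 were past the limit and higher and 4 lower, against 3.20% and 2.34% of all genes.

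**Figure D4:**
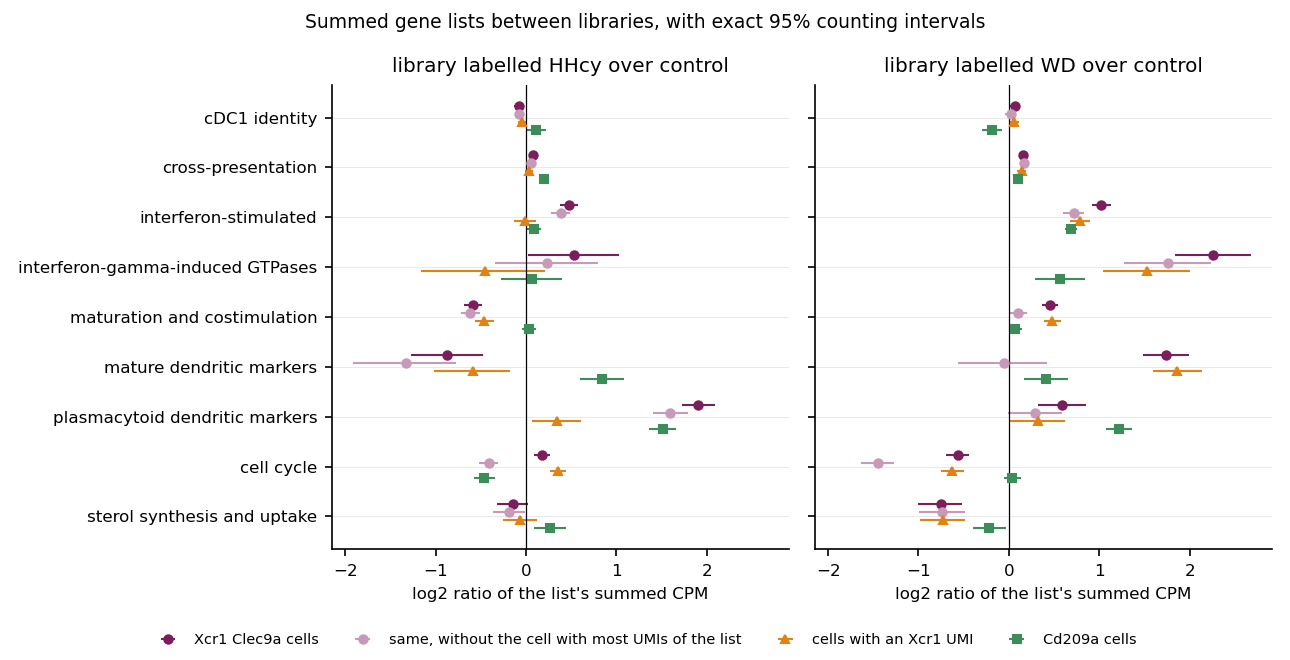
Log2 ratio of the summed CPM of each list to control (horizontal axis) with exact 95% counting intervals, for the libraries labelled HHcy and WD. Colours and shapes separate all members, members without the cell richest in the list in each library, members with an Xcr1 UMI, and Cd209a cells; the cDC1 list lies near 0 in both panels.

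Plasmacytoid dendritic cell markers were higher among members of the library labelled HHcy, at 1113 CPM against 298 CPM in control and 448 CPM in the library labelled WD. The HHcy ratio was 1.90 (1.72 to 2.09). Of 8 list genes, 6 were past the limit and higher (Siglech, Bst2, Ccr9, Ly6d, Runx2 and Tcf4), against 3.20% of all genes. These values are for all members. In members with an Xcr1 UMI it was 0.34 (0.07 to 0.61). The list was also higher in Cd209a cells, with ratios of 1.51 (1.36 to 1.66) for HHcy and 1.22 (1.08 to 1.37) for WD. The highest control member was at 1151 CPM of the list, and 5 members of the library labelled HHcy exceeded it. Of these, 4 held no Xcr1 and reached 8554 to 16596 CPM. In these 4 cells the cDC1 list was at 1124 to 3635 CPM, against a median of 8729 in the other members of that library. Ly6a, which encodes the surface antigen Sca-1, was among the genes named as highest for HHcy, at 46.4 CPM in control and 325 CPM (2.81, 2.38 to 3.25), as were Csf2rb2, I830077J02Rik, Ptprcap, Satb1 and Tcf4. In members with an Xcr1 UMI the Ly6a ratio became 2.01 and the Tcf4 ratio of 2.17 became -0.25, and Csf2rb2 and Satb1 held too few UMIs there for a ratio. In Cd209a cells the HHcy ratios were 1.25 (Ly6a), 0.90 (Csf2rb2), -0.046 (I830077J02Rik), 1.35 (Ptprcap), 0.20 (Satb1) and 0.88 (Tcf4). The named lowest for HHcy were Lrrc32, Tcf19, Rasa2, Smurf2, Phf1 and Ets2, with 1 or 2 UMIs each in that library. Lrrc32, the surface anchor of latent TGF-beta, had 35 UMIs in control and 1 in the library labelled HHcy (-4.08, -9.42 to -1.51).

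The named highest for WD were Gm38115, Parp9, Jak3, Cd302, Sdhaf4 and AY036118. Parp9, a partner of interferon signalling, was at 20.1 CPM in control and 72.0 CPM in the library labelled WD (1.84, 1.01 to 2.68), and at a ratio of 0.995 in Cd209a cells. AY036118 was at 146 and 464 CPM (1.67), with ratios of 1.18 in Cd209a cells and 1.27 in all other barcodes. The named lowest, Gm19951, Rreb1, Peak1, Sap130, Bcl2 and Cep290, each had 1 UMI in the library labelled WD and 28 to 33 in control. They met the minimum of 20 UMIs through control alone, so their place was partly set by that filter.

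Mature and cycling states were few cells in each library. At least 2 summed UMIs of Ccr7 and Fscn1 were found in 4 of 77 members in control, 0 of 39 in that labelled HHcy (95% Clopper-Pearson interval up to 9.03%) and 2 of 23 in that labelled WD. In the library labelled HHcy 6 members held 1 UMI of Ccr7. The mature marker list was at 199, 109 and 664 CPM in the same order. Its WD ratio of 1.74 (1.48 to 2.0) became -0.058 without the richest cell of each library, which held 81.5% of the UMIs in that labelled WD. Its HHcy ratio was -0.87 (-1.28 to -0.48), with 52.9% of the UMIs of that library in 1 cell. It was -0.59 in members with an Xcr1 UMI and 0.82 with up to 2 UMIs of the lineage genes allowed, so its direction depended on the gate. At least 2 UMIs of Mki67 and Top2a were found in 19.5%, 20.5% and 21.7% of members, and in 9.09%, 5.13% and 4.35% after thinning each cell to 2000 UMIs. In Cd209a cells the unthinned shares were 19.1%, 14.3% and 19.3%. For the summed cell-cycle list, 1 cell held 44.1% of the UMIs in that labelled HHcy and 53.8% in that labelled WD, so its ratios of 0.18 and -0.56 became -0.41 and -1.45 without the richest cell of each library. In members with an Xcr1 UMI the HHcy ratio was 0.36.

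**Figure D5:**
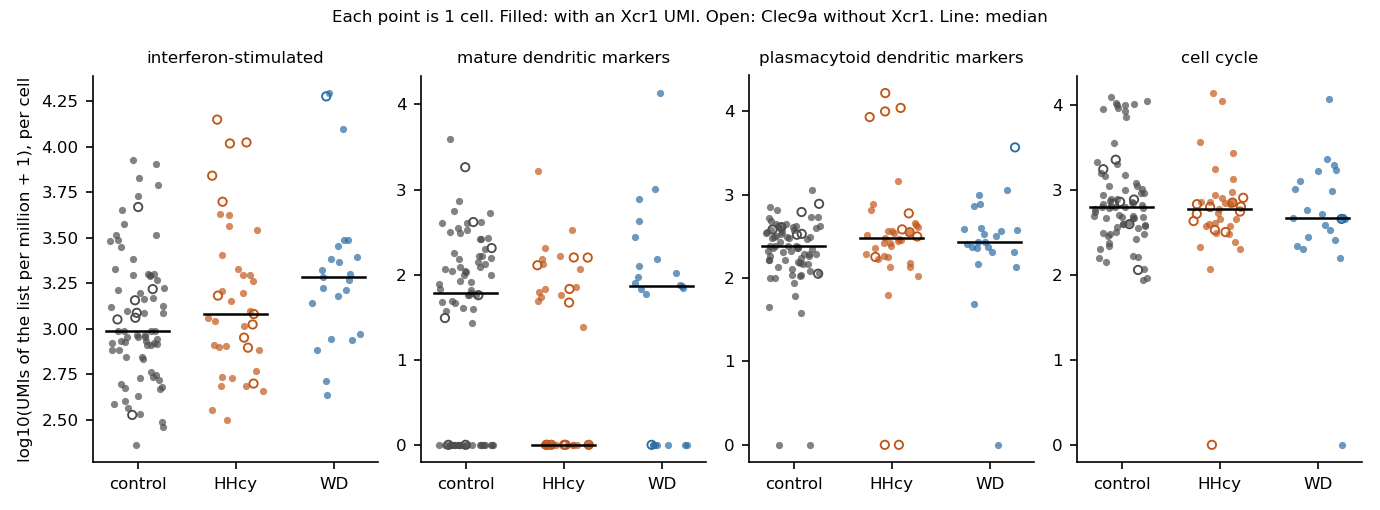
Level of 4 lists in each member cell as log10(CPM + 1), by library, with the median as a line; open circles are members with Clec9a and no Xcr1. The 4 open circles of the library labelled HHcy at the top of the plasmacytoid panel are the cells at 8554 to 16596 CPM, and 1 WD cell stands above all others in the mature panel.

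The summed list of genes that define the population differed little between libraries, while single genes of it differed more. The summed cDC1 list without the gate genes was at 8367 CPM in control, 7901 CPM in the library labelled HHcy and 8797 CPM in the library labelled WD, ratios of -0.083 (-0.13 to -0.03) and 0.072 (0.02 to 0.13). The HHcy ratio was -0.041 in members with an Xcr1 UMI. Of 24 of its genes for HHcy, 2 were past the limit and higher (Cxcl9 and Cd8a) and 3 lower (Plet1, Il12b and Nfil3), against 3.20% and 2.34% of all genes. Of 23 for WD, Cxcl9 was higher and Plet1 lower, against 2.32% and 3.27% of all genes. Nfil3, a transcription factor of cDC1 development, was at 64.2 CPM in 38 of 77 control members and 25.6 CPM in 13 of 39 of the library labelled HHcy (-1.33, -2.20 to -0.54). The others were found in few cells. Il12b, the p40 chain of interleukin-12, had 59 UMIs in control, 67.8% of them in 1 cell, and 1 UMI for HHcy. Plet1 had 82 UMIs in 6 control members, 11 for HHcy and 0 for WD, and Cxcl9 had 21, 36 and 145 UMIs, with 72.4% of the last in 1 cell. The cross-presentation list had 0 of 30 genes past the limit in either comparison, with ratios of 0.08 (0.04 to 0.12) and 0.16 (0.11 to 0.21), the first 0.036 in members with an Xcr1 UMI. The MHC class II list likewise had 0 of 13 genes past it. For the one-carbon and homocysteine metabolism list, 0 of 13 genes were past the limit for HHcy and 0 of 12 for WD, and the summed HHcy ratio was 0.14 (-0.04 to 0.32), or 0.15 in members with an Xcr1 UMI. Marker lists of other cell types in members were 312, 801 and 317 CPM for B cells, 248, 272 and 344 CPM for macrophages and 10.0, 32.0 and 21.3 CPM for T and natural killer cells, in the order control, HHcy and WD. The monocyte list was the most abundant of these, at 2436, 3644 and 2635 CPM, with Fn1, Plac8 and Ly6c2 past the limit and higher for HHcy and Plac8 and Eno3 for WD. Its HHcy ratio was 0.58, and 0.31 in members with an Xcr1 UMI, against 0.52 in Cd209a cells and 0.016 in other barcodes. The HHcy ratio of the B cell list was 1.36 in members, 1.29 in Cd209a cells and 1.25 in other barcodes. The part of these lists in the differences between libraries was not tested.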

How the data were processed

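The deposited files are raw UMI counts per gene and barcode for 32285 genes, made by the authors with Cell Ranger, version 2.2.0 per the submitters' processing notes and 4.0.0 per the file headers, on mm10. They cover called cells; empty droplets were not used here. Members and gene lists were chosen with earlier results of these data known.

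UMI counts were summed per library and gate, to 1293602, 625477 and 374994 UMIs of members and 1254118, 696945 and 943671 of Cd209a cells (control, HHcy, WD). The 6 sums were compared with edgeR 4.0.16 (R 4.3.3, limma 3.58.1; TMM, filterByExpr, library as a block, Benjamini-Hochberg over 6885 genes). The 7 gate genes were left out of the test. P-values measure the spread over these 3 libraries. The standard errors (SE) were calculated back from the test, as the absolute log2 fold change divided by the square root of its F statistic. On simulated counts for 6807 genes of this comparison, 30.9% of 97 genes changed by 1 on the log2 scale were called, 99.0% of 98 changed by 2, and 2 others. The library is the pairing: both gates come from the same suspension.

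CPM are counts scaled to the UMI total of the summed cells. No doublet caller was run; the gate's clauses on C1qa, Cd79a and Cd3e remove some doublets, and leaving out barcodes with at least 3 markers of another lineage was an alternative. DESeq2 1.42.0, other limits, thinning and leaving out each library were the other alternatives. Named genes were the 12 with the largest log2 fold change each way among those called, in 1 direction in all libraries and at a mean of at least 50 CPM in the higher gate. Between libraries they were the 6 largest each way past the limit with no cell holding over 25% of the UMIs. Genes of the X and Y chromosomes, mitochondrial, ribosomal protein, haemoglobin, immunoglobulin and T cell receptor genes were not named. Genes outside this rule are list members shown as examples. A few genes that the rule or the lists hold are not reported here. Python 3.11.15 with numpy 2.4.6, scipy 1.17.1, pandas 2.3.3 and matplotlib 3.10.9 was used for the rest.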

Additional observations from a re-analysis of the deposited data

Results flagged for a closer look

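Barcodes that failed the limits on detected genes or mitochondrial UMIs and were used in no comparison also met the member gate, with 12 such barcodes in control, 7 for HHcy and 7 for WD.

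For 4 summed lists the libraries labelled HHcy and WD lay on opposite sides of control, which they share. The difference between them was not tested. For the cell-cycle list the log2 ratios were 0.18 (HHcy) and -0.56 (WD). For the mature dendritic markers they were -0.87 and 1.74, for maturation and costimulation -0.58 and 0.45, and for cDC1 identity -0.083 and 0.072. Not all of these opposite directions held under other settings. Without the richest cell of each library, both cell-cycle ratios were below 0 (-0.41 and -1.45), the WD ratio of the mature markers was -0.058 and that of maturation and costimulation 0.10. With up to 2 UMIs of the lineage genes the HHcy ratio of the mature markers was 0.82 and the WD cell-cycle ratio 0.032. Leaving out barcodes with 3 or more markers of another lineage kept 6 members of the library labelled HHcy. There the HHcy ratios of maturation and of cDC1 identity were 0.11 and 0.013.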

How the results depend on the processing

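With the gate as used the member shares were 1.28%, 0.478% and 0.343% (control, HHcy, WD). They were 0.505%, 0.292% and 0.189% thinned to 2000 UMIs, 0.397%, 0.0736% and 0.0745% without barcodes with 3 or more markers of another lineage, 2.04%, 1.23% and 0.924% with up to 2 UMIs of the lineage genes, and 3.23%, 2.18% and 2.25% with no such limit. The control share was 1.71% at a 5% mitochondrial limit and 1.72% with a threshold of 1 UMI, which gave 0.596% for WD. The share of both gates was 26.6% (thinned) and 38.1% (3 markers) in control and 41.2% for WD with 1 UMI. The HHcy share ratio was -0.79 (thinned), -2.43 (3 markers), -0.73 (up to 2) and -0.57 (no limit), and the WD ratio -1.14 (up to 2) and -0.52 (no limit). The HHcy ratio of the share of both gates was 0.58 when thinned. The WD ratio of Cd209a cells was 0.026 with no limit.

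Genes called against Cd209a cells numbered 1241, and 789 with 1 UMI, 182 thinned, 179 (3 markers), 2220 (up to 2) and 620 with DESeq2. They were 639 to 1045 leaving out 1 library and 1049 without the replicate block, here the library. The unadjusted p was under 0.05 for 1995. The 24 named genes kept their call in 350 of 352 alternatives, and lost it in 2 (Il1rn and Mmp12 with 1 UMI). Thbs1 was 1.17 with 1 UMI.

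Genes past the limit between libraries numbered 391 (HHcy) and 366 (WD), and 42 and 23 thinned, 166 and 166 with at least 50 UMIs, and 752 and 596 at 1.5-fold. For HHcy they were 151 with 3 markers left out. Directions reversed for Tcf4 (-0.87 with 3 markers, -0.25 with Xcr1), Tcf19 (0.092) and Rasa2 (0.32) with up to 2 UMIs, and Cd302 (-0.33) with 1 UMI. With 3 markers left out, only 24, 6 and 5 members remained (control, HHcy, WD). Summed lists reversed for HHcy with 3 markers left out: interferon-stimulated -0.35, GTPases -1.87, cell cycle -0.66, plasmacytoid -0.33, maturation 0.11, cross-presentation -0.19 and cDC1 0.013. Others were interferon-stimulated -0.067 (thinned) and -0.015 (Xcr1), GTPases -0.45 (Xcr1), cell cycle -0.41 (without the richest cell of each library) and -0.53 (thinned), and mature markers 0.82 (up to 2). For WD they were mature markers -0.058 (without the richest cell) and -0.55 (3 UMIs), cell cycle 0.032 (up to 2) and cDC1 -0.14 (1 UMI). The cause was not tested. The 23 members of the library labelled WD limit every value there.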

Other observations

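Immediate early and heat-shock genes, which tissue digestion can induce, were among the most abundant transcripts of members, at 25599, 21406 and 24064 CPM for the summed list (control, HHcy, WD). In Cd209a cells the sum was 23117, 22378 and 22611 CPM. Of 23 tested genes, 9 were higher in members by edgeR's test and 4 were lower, against 8.15% and 9.88% of all genes tested. Fos was at 2600, 1930 and 2053 CPM in members against 1615, 1354 and 1115 CPM (0.75 ± 0.10), and Nfkbia, the inhibitor of NF-kappa B, was lower by -0.92 ± 0.15.

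Single interferon-stimulated genes did not differ in 1 direction between the gates, with 4 of 21 higher in members (among them Stat2, Trim30a and Phf11b) and 6 lower (Ifit1, Rtp4, Oasl2, Oas1a, Isg15 and Ifi27l2a). The summed list was lower in members of every library, at 1632, 2267 and 3317 CPM against 2663, 2821 and 4275 CPM in Cd209a cells (control, HHcy, WD). The shares over all genes tested were 8.15% and 9.88%. Ifi27l2a was at 646, 654 and 784 CPM in members against 1347, 1088 and 2096 CPM in Cd209a cells. Srebf2, the transcription factor of sterol synthesis, was the 1 gene called of 12 in its list, near the 8.15% called higher over all genes. It was at 177, 161 and 157 CPM against 114, 108 and 72.1 CPM (0.81 ± 0.17).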
